A study of Mus musculus with 24 samples.

Results

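Cholic acid added to the feed of wild-type C57BL/6 mice went with near-absent mRNA of Cyp7a1 and Cyp8b1 in the liver, enzymes of cholic acid synthesis, lower mRNA of the cholesterol synthesis pathway, higher mRNA of drug metabolism genes, and lower mRNA of genes that male mouse livers express more than female ones. Livers of 4 cholic acid libraries (CA_0 to CA_3) were compared with 4 libraries of normal chow (NC_0 to NC_3), 8 of the 24 labelled samples of the series and of its 20 usable count columns. All mice shared the strain and were 8 to 10 weeks old when an 8-week feeding period began. By the labels the groups differ in the added bile acid and in no genotype, surgery or drug. The amount of cholic acid, the composition of the base feed and the sex of the mice are not given in the sources used here. Other groups of the same strain, age and feeding time serve as side comparisons: high sucrose (HS, 5 libraries) and 2% cholesterol with cholic acid (Chol_CA, 4 libraries). Both, and high sucrose with 2% cholesterol (HS_Chol), also enter the main fit of all 20 columns. They thus help to set the low-count filter, the scaling and the shared spread behind each p-value. The labels number the samples but do not say that each is a separate animal. The p-values therefore measure the spread between samples, pooled over the diets of the fit.

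Bile acids are detergents that hepatocytes make from cholesterol and secrete into bile. In the liver they bind the nuclear receptor FXR (Nr1h4), which through SHP (Nr0b2), and through the gut hormone FGF15 acting on Fgfr4, shuts down bile acid synthesis, reduces uptake from blood and increases export. Bile acids can also engage the xenobiotic receptors PXR and CAR, whose targets oxidise, conjugate and export lipophilic compounds. Cholic acid, a product of Cyp8b1, is a good solubiliser of dietary cholesterol, and sterol that reaches the liver is known to lower SREBP2 targets and to raise LXR targets.

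In edgeR's quasi-likelihood test of 12578 genes, 1238 (9.84%) differed between cholic acid and chow at an adjusted p under 0.05. Of these, 677 (5.38%) were higher and 561 (4.46%) lower with cholic acid, and 477 and 309 of them by at least 2-fold. The median log2 fold change over all genes tested was 0.02, and the libraries of the 2 groups did not overlap in 1730 genes (13.75%). Values below are CPM (reads of a gene per 1000000 reads, scaled by effective library size), fold changes are cholic acid over chow on the log2 scale with their standard error, and "rose" or "fell" means an adjusted p under 0.05. CPM is not scaled for transcript length, so levels are compared between libraries and not between genes.

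2 libraries stood apart from their groups. Relative to the mean over the diets, levels declined with the exon length of the gene in NC_3 and CA_0 (slopes of −0.153 and −0.135 log2 units per doubling of length). They increased with it in the other 6, though little in CA_3 (0.026). NC_3 had 13.2% of its reads on mitochondrial mRNA, against 8.34% to 8.74% in the other chow libraries and 8.78% to 9.68% with cholic acid. A fit of the 12 libraries of all diets with a positive slope leaves out NC_3, CA_0 and 6 libraries of other diets. "Without NC_3 and CA_0" refers to this fit throughout. In it 1518 of 12404 genes tested were higher and 1445 lower, against 677 and 561 of 12578 in the main fit. A list's counts without NC_3 and CA_0 thus stand against a larger share of all genes than its main counts. Without any 1 of the 8 libraries, the count of higher genes ran from 375 (without NC_0) to 683 (without NC_3) and that of lower genes from 409 (without CA_3) to 677 (without CA_0). The count of higher genes also fell by more than 1.5 times without NC_1 (438), NC_2 (435) or CA_3 (442). Total reads were 7598660 to 8215500 per chow library and 7850495 to 10244277 per cholic acid library. Albumin (Alb), the defining hepatocyte mRNA, stood at 87938 to 93075 CPM in chow and 57304 to 88241 CPM with cholic acid, a difference that did not pass (log2 fold change −0.31 ± 0.15, adjusted p = 0.2515). In whole liver, fewer cells of a type and less RNA per cell cannot be told apart.

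Among the 8 enzymes of the classic arm of bile acid synthesis, Cyp8b1 and Cyp7a1 fell furthest, and the other 6 fell by less than 1 on the log2 scale or did not pass. Cyp8b1, the sterol 12α-hydroxylase that directs synthesis to cholic acid (chr9:121914356-121916305, minus strand, GRCm38), stood at 638, 545, 460 and 839 CPM in the 4 chow libraries and at 0.72, 1.17, 1.58 and 2.13 CPM in the cholic acid libraries. The groups did not overlap, and the lowest chow library was far above the highest cholic acid library (log2 fold change −8.76 ± 0.37, adjusted p = 8.147e-12). The promoter of Cyp8b1 is shown because this fall had the smallest adjusted p among the bile acid genes. It is the RefSeq window of 250 bases before to 50 bases after the transcription start, chr9:121916256-121916555 on the minus strand of GRCm38.p6, with capitals marking the one match to the binding sequence of LRH-1 (Nr5a2), the receptor on which SHP acts.
Cyp8b1: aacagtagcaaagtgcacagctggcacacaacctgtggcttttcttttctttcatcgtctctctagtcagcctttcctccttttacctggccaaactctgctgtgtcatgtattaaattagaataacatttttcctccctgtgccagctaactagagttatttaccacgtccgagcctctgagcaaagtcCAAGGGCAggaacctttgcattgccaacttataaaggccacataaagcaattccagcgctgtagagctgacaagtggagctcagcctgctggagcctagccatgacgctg
The match, CAAGGNCA on either strand, begins at position −60 from the start, and 6.71% of 32851 RefSeq promoter windows hold one. Windows of Cyp2b10, Cyp2b9 and Cyp2b13, genes that rose, also hold one, so the match does not go with the direction of change. A match is a description of the letters only.

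Cyp7a1, the rate-limiting enzyme of the classic pathway, stood at 64.0, 41.9, 35.4 and 74.0 CPM in chow and at 0.12, 0.23, 1.38 and 0.21 CPM with cholic acid. It fell by 6.66 ± 0.55 on the log2 scale (adjusted p = 3.686e-07), and CA_2 was the highest of the cholic acid libraries. Cyp7b1, the oxysterol 7α-hydroxylase of the alternative pathway, stood at 358, 291, 268 and 198 CPM in chow and 71.1, 19.4, 29.9 and 22.2 CPM with cholic acid (log2 fold change −2.97 ± 0.46, adjusted p = 0.0002609). Cyp27a1, the mitochondrial sterol 27-hydroxylase that starts the alternative pathway and side-chain oxidation, fell by 0.79 ± 0.13 (adjusted p = 0.0005653), and Hsd3b7, which acts after the first hydroxylation, also fell (−0.83 ± 0.16, adjusted p = 0.00233). Of 8 tested genes of the classic arm 5 fell and none rose, with a median of −0.80. Of 12 genes of the alternative arm and side chain 4 fell and 1 rose, with a median of −0.26. Without NC_3 and CA_0, 6 of 8 and 6 of 12 fell and 1 rose in each list. Among the conjugating genes, Slc27a5, the bile acid CoA ligase, fell by 0.53 ± 0.13 (adjusted p = 0.009573). Its call was lost in 3 alternatives, among them a fit of the chow and cholic acid libraries alone. Baat, which joins bile acids to taurine, did not pass (−0.43 ± 0.15, adjusted p = 0.0736). Baat passed in 4 alternatives, among them the fit without CA_0, with adjusted p between 0.002789 and 0.02144. Csad, which makes taurine, stood at 476 to 703 CPM in chow and 76.7 to 118 CPM with cholic acid (−2.51 ± 0.29, adjusted p = 1.111e-05). For Csad the control mattered: HS had a mean of 94.5 CPM, and cholic acid against HS gave 0.08 (adjusted p = 0.8916).

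**Figure D1:**
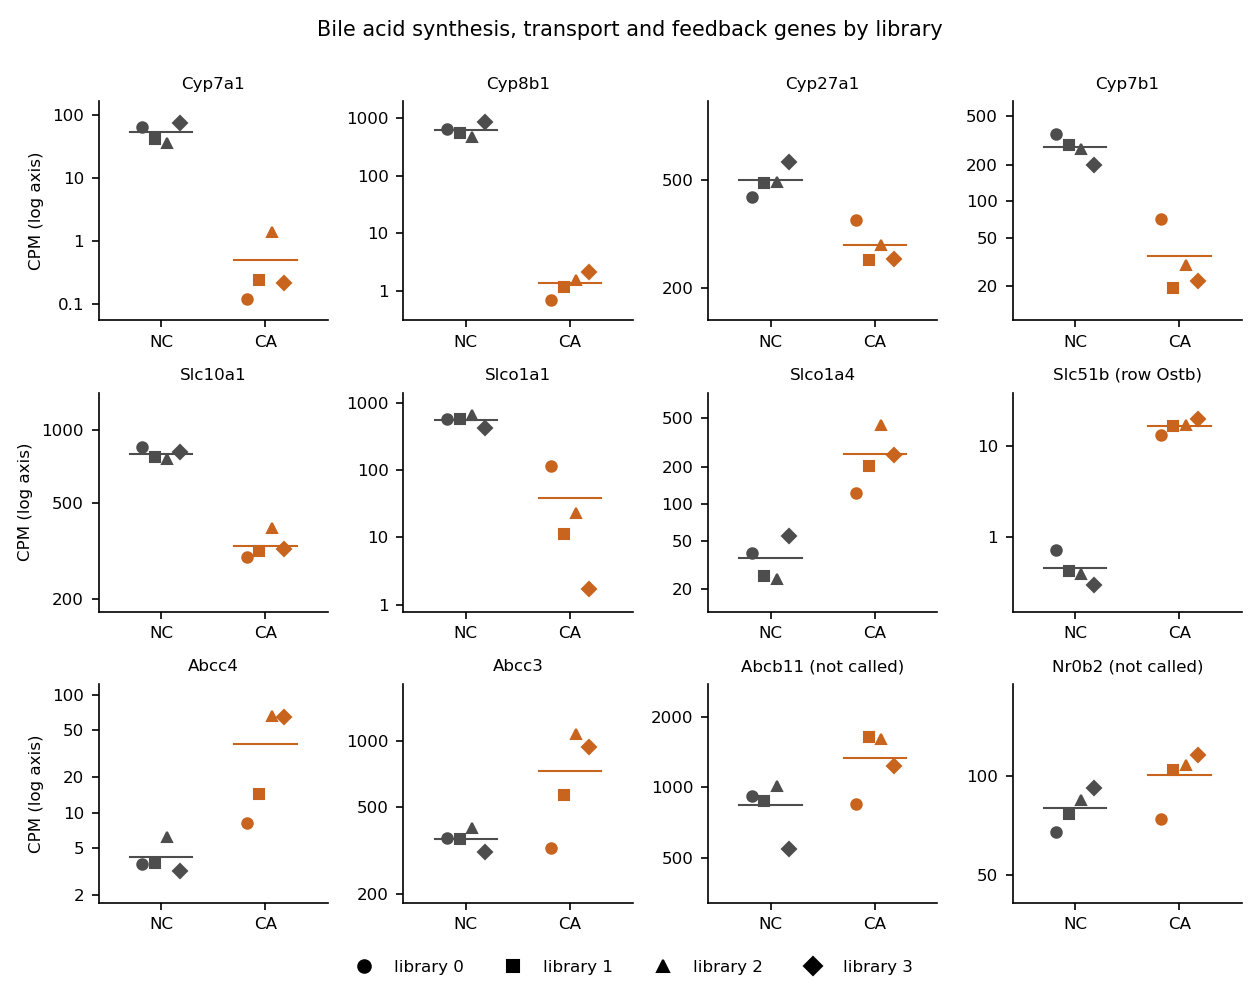
Levels of bile acid synthesis, uptake, export and receptor genes in each of the 4 chow and 4 cholic acid libraries, as CPM on a log axis of its own for each gene, with 1 marker shape per library number and the group mean as a line. Cyp8b1 and Cyp7a1 were at 2.13 CPM or lower in all 4 cholic acid libraries, and Slc51b and Abcc4 were higher there than in every chow library.

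Genes of transporters on the blood side of the hepatocyte moved in both directions, with most importers lower and some exporters higher. Slc10a1, the sodium-dependent importer NTCP, stood at 851, 775, 757 and 817 CPM in chow and 298, 316, 393 and 323 CPM with cholic acid, without overlap (−1.27 ± 0.21, adjusted p = 0.0005516). Slco1a1, an organic anion importer that male livers express more, stood at 573, 567, 657 and 421 CPM in chow and 116, 11.4, 22.7 and 1.71 CPM with cholic acid (−3.87 ± 0.73). CA_0 kept the highest level of the cholic acid group for Slco1a1, a pattern that recurred in the sex-biased genes. Slco1b2, another organic anion importer, fell by 0.79 ± 0.19. Of 8 uptake carriers 5 fell and 1 rose. The exception was Slco1a4, a PXR target, at 24.4 to 54.3 CPM in chow and 122 to 437 CPM with cholic acid (2.81 ± 0.43).

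The export gene with the largest rise was Ostb, the β subunit of the basolateral bile acid exporter (current symbol Slc51b). It stood at 0.71, 0.41, 0.38 and 0.29 CPM in chow and 13.6, 16.7, 17.3 and 20.1 CPM with cholic acid (5.19 ± 0.42, adjusted p = 5.151e-07). All cholic acid libraries lay in a narrow range far above chow, CA_0 included. Its partner subunit Slc51a (row Osta) was not tested, with 1 read over the chow libraries and 0 over the cholic acid libraries. Abcc4 (MRP4), a basolateral efflux pump, stood at 3.67, 3.71, 6.26 and 3.20 CPM in chow and 8.16, 14.3, 66.8 and 65.3 CPM with cholic acid (3.19 ± 0.52). Abcb1a, the P-glycoprotein drug pump, stood at 1.55 to 4.98 CPM in chow and 24.1, 99.3, 130 and 120 CPM with cholic acid (4.94 ± 0.50). Abcc3 (MRP3) was called higher (1.03 ± 0.30, adjusted p = 0.03163), but CA_0, at 323 CPM, lay among the chow libraries at 310 to 401 CPM. Its call was lost without any 1 of CA_2, CA_3 and the 4 chow libraries, among other alternatives (adjusted p 0.0566 to 0.3088). Abcb11, the canalicular bile salt export pump, stood at 543 to 1013 CPM in chow and 849 to 1637 CPM with cholic acid and did not pass (0.67 ± 0.28, adjusted p = 0.1483). The chow library at 543 CPM was NC_3 and the cholic acid library at 849 CPM was CA_0; without both, Abcb11 passed (adjusted p = 0.00251). Of 11 exporters tested 4 rose and none fell. Over all alternatives 3 to 5 rose and 0 to 3 fell, 3 without NC_3 and CA_0 and 1 by DESeq2, without CA_0, without NC_3 or with a term for the length trend.

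Among receptors and feedback genes, Nr1h4 (FXR) itself stood at 144 to 162 CPM in chow and 73.3 to 98.2 CPM with cholic acid (−0.80 ± 0.15, adjusted p = 0.001996). Nr0b2 (SHP), a direct FXR target, stood at 67.7 to 92.1 CPM in chow and 74.2 to 116 CPM with cholic acid and did not pass (0.33 ± 0.26, adjusted p = 0.5163). Fgfr4 was called lower (−0.42 ± 0.11, adjusted p = 0.0198), with overlap between the groups, and lost its call in 8 alternatives, among them the fits without CA_2, CA_3, NC_0 or NC_1 (adjusted p 0.05835 to 1). Nr1i2 (PXR) rose from 63.2 to 80.1 CPM in chow to 102 to 151 CPM with cholic acid (0.84 ± 0.13, adjusted p = 0.0003004). Fgf15, the gut hormone of this feedback loop, had no read in any of the 8 libraries, which allows up to 0.1032 CPM over the chow and 0.08242 CPM over the cholic acid libraries.

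Most drug metabolism genes under CAR and PXR rose. Of 30 tested, 22 rose and 2 fell (Cyp2c54, −2.003 ± 0.32, was 1 of them), with a median of 1.77. The median was positive in each cholic acid library, at 0.98 in CA_0, 1.41 in CA_1, 2.25 in CA_2 and 2.00 in CA_3 relative to the chow mean. Without NC_3 and CA_0 24 rose, and over all alternatives between 16 and 24 did. Cyp3a11, the abundant hepatic monooxygenase used as a PXR marker, stood at 3261, 3699, 3022 and 4460 CPM in chow and 12316, 13518, 19734 and 15654 CPM with cholic acid (2.08 ± 0.29). Cyp2b10, the classic CAR marker, stood at 2.96, 1.51, 1.66 and 3.79 CPM in chow and 17.9, 64.9, 313 and 245 CPM with cholic acid (6.02 ± 0.68, adjusted p = 9.635e-06). Por, which passes electrons to all microsomal cytochrome P450 enzymes, rose by 1.71 ± 0.25. Cyp2c55 rose by 4.94 ± 0.46, Ces2a, a carboxylesterase, by 2.33 ± 0.23, and Cyp2c29 by 1.59 ± 0.25. No library of either group overlapped the other in these 6 genes, which were picked from the list and stand against 13.75% of all genes tested, and CA_0 had the lowest cholic acid value in each.

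Cyp2b9 and Cyp2b13, neighbouring steroid hydroxylase genes that female livers express, rose from almost nothing. Cyp2b9 stood at 0.28, 0.27, 0.38 and 1.17 CPM in chow and 25.1, 120, 291 and 233 CPM with cholic acid (8.29 ± 0.69, adjusted p = 3.686e-07). Cyp2b13 had 1 read over the 4 chow libraries and 1091 reads over the 4 cholic acid libraries, a ratio of 871 after scaling (95% exact counting interval 156 to 34445). Its cholic acid libraries were at 0.96, 9.48, 53.9 and 48.5 CPM. Their RefSeq promoter windows, chr7:26173159-26173458 for Cyp2b9 and chr7:26061245-26061544 for Cyp2b13 (both plus strand, GRCm38.p6), are shown because the 2 genes are near-identical copies. The windows are identical at 298 of 300 bases (99.3%), and capitals mark the 2 bases that differ. Both also hold a match to the LRH-1 sequence, left in lower case.
Cyp2b9: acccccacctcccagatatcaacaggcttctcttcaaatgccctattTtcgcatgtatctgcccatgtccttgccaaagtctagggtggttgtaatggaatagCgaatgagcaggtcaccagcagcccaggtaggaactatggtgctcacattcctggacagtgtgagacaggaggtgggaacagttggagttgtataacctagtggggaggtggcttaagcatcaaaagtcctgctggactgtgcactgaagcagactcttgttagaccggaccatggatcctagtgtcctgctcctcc
Cyp2b13: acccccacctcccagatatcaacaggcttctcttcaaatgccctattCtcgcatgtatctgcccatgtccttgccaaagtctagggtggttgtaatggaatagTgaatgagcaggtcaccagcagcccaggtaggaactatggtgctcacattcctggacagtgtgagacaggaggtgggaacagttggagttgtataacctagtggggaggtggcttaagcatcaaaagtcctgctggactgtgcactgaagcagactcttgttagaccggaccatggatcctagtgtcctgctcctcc
Short reads from such copies may be assigned to either gene, so their separate values are uncertain. The same limit holds for Cyp2a4 and Cyp2a5, for the Mup and Serpina1 clusters, and for the Gstm and Cyp4a genes. All 3 tested Cyp2b genes, all 5 Cyp3a genes and all 4 Cyp2a genes rose, while over the 68 tested Cyp genes 18 rose and 20 fell.

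Conjugation and antioxidant genes rose in part. Gstm3, a glutathione transferase, stood at 77.1, 46.3, 71.5 and 100 CPM in chow and 1394, 3358, 6148 and 6501 CPM with cholic acid (5.88 ± 0.62). Nqo1, a quinone reductase and NRF2 target, rose by 2.42 ± 0.44, and Cbr3, a carbonyl reductase, by 5.86 ± 0.94. Akr1b7, a vas deferens type aldose reductase, stood at 0 to 0.77 CPM in chow and 6.601, 34.7, 46.6 and 37.7 CPM with cholic acid (6.6 ± 0.74). Of 25 NRF2 and glutathione genes 11 rose and Me1 fell, with a median of 0.71, and 7 to 13 rose over all alternatives. Gclc, the catalytic subunit of glutathione synthesis (0.09 ± 0.16, adjusted p = 0.8137), and Hmox1, heme oxygenase (0.59 ± 0.34, adjusted p = 0.3447), did not pass. Of 18 genes of bile acid sulfation and glucuronidation 4 rose and 2 fell, but the rises numbered 0 without NC_0, 1 without CA_2, CA_3 or NC_1, 2 without CA_1 or NC_2, and 8 (with 5 falls) without NC_3 and CA_0. One of those that rose, the sulfotransferase Sult2a2, had 1 read in chow and 175 with cholic acid (ratio 140, 95% exact counting interval 24.8 to 5551). CA_0 had no Sult2a2 read, and the call was lost without any 1 chow library (adjusted p over the alternatives that lost it 0.05488 to 0.4641).

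**Figure D2:**
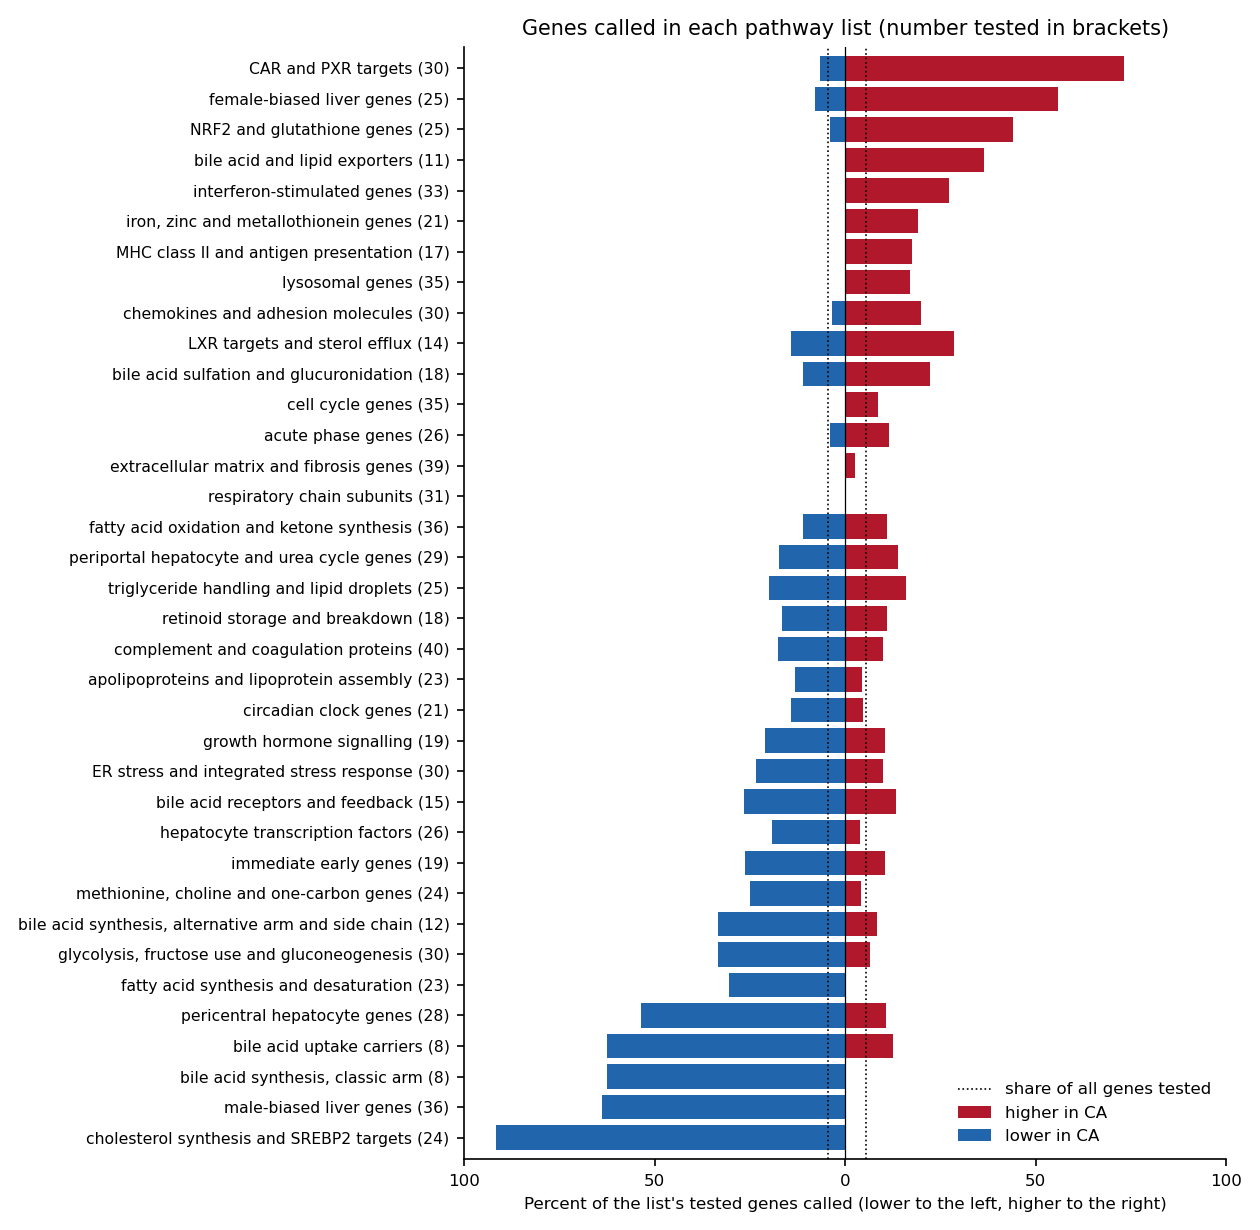
Percent of the tested genes of each pathway list called higher (bars to the right of 0) or lower (to the left) with cholic acid, with the number tested in brackets and dotted lines at the shares over all genes tested (5.38% and 4.46%). CAR and PXR targets (22 of 30 higher) stand at the top, and male-biased genes (23 of 36 lower) and cholesterol synthesis (22 of 24 lower), with no member higher, at the bottom.

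Cholesterol synthesis fell as a block. Of 24 tested genes of the pathway and its regulator SREBP2, 22 fell and none rose, with a median of −1.48, against a median of 0.02 over all genes. Without NC_3 and CA_0 the count was also 22, and over all alternatives it was 16 to 24. Sqle, squalene epoxidase, stood at 69.7, 58.4, 70.7 and 70.9 CPM in chow and 1.92, 5.62, 1.97 and 6.83 CPM with cholic acid (−4.04 ± 0.35, adjusted p = 4.391e-07). Fdps, farnesyl diphosphate synthase, stood at 75.3 to 199 CPM in chow and 11.3 to 20.9 CPM with cholic acid (−2.70 ± 0.30). The groups did not overlap in either gene. NC_3 was the highest chow library for much of the list, with a list median of 0.46 above the chow mean; Hmgcs1, HMG-CoA synthase, was at 875 CPM there and at 287 to 380 CPM in the other chow libraries, against 106 to 160 CPM with cholic acid. Without NC_3 the list median was −1.42.

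The promoters of 4 of these genes are shown because the pathway moved together. The windows are Hmgcs1 (chr13:119690101-119690400, plus strand), Mvd, mevalonate diphosphate decarboxylase (chr8:122443373-122443672, minus strand), Msmo1, the sterol methyl oxidase listed as Sc4mol in the count table (chr8:64733529-64733828, minus strand), and Nsdhl, a sterol dehydrogenase (chrX:72918271-72918570, plus strand), all RefSeq on GRCm38.p6. Capitals mark the NF-Y box CCAAT on either strand and, in Hmgcs1, the sterol response element TCACCCCAC at position −137.
Hmgcs1: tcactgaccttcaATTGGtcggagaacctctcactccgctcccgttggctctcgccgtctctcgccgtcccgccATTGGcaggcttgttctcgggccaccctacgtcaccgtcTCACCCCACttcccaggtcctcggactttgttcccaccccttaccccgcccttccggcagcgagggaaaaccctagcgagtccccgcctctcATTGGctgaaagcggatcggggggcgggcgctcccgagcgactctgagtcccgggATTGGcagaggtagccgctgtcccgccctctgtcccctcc
Mvd: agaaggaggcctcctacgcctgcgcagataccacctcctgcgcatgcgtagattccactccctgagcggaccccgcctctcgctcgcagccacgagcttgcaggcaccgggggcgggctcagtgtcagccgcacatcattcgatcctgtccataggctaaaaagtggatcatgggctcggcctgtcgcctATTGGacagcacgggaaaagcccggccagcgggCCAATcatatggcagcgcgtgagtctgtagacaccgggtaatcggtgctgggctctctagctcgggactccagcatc
Msmo1: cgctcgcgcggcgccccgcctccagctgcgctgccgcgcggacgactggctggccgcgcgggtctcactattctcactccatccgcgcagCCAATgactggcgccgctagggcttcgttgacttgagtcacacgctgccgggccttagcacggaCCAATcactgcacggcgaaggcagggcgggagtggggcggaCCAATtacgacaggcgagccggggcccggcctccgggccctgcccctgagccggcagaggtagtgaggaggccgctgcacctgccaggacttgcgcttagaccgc
Nsdhl: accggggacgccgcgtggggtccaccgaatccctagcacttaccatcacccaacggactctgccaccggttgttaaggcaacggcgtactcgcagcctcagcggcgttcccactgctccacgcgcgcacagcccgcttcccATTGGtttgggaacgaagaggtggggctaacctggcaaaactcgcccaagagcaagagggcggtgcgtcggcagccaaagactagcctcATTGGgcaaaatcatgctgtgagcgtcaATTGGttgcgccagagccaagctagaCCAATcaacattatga
NF-Y is a general factor that works beside SREBP2. Of the 20 RefSeq windows of the list, which belong to 17 genes, 16 held CCAAT on either strand, against 37.4% of all 32851 windows. Other lists lay on both sides of that share, with 23 of 29 windows for cell cycle genes and 3 of 25 for acute phase genes. A high share is thus not particular to the cholesterol genes. A match says nothing of binding. The sterol element TCACNCCAC was found in Hmgcs1 and in no other window of the list, against 1.24% of all windows. Their fold changes were −1.90 ± 0.29 for Hmgcs1, −2.63 ± 0.41 for Mvd, −2.41 ± 0.21 for Sc4mol and −2.21 ± 0.24 for Nsdhl.

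**Figure D3:**
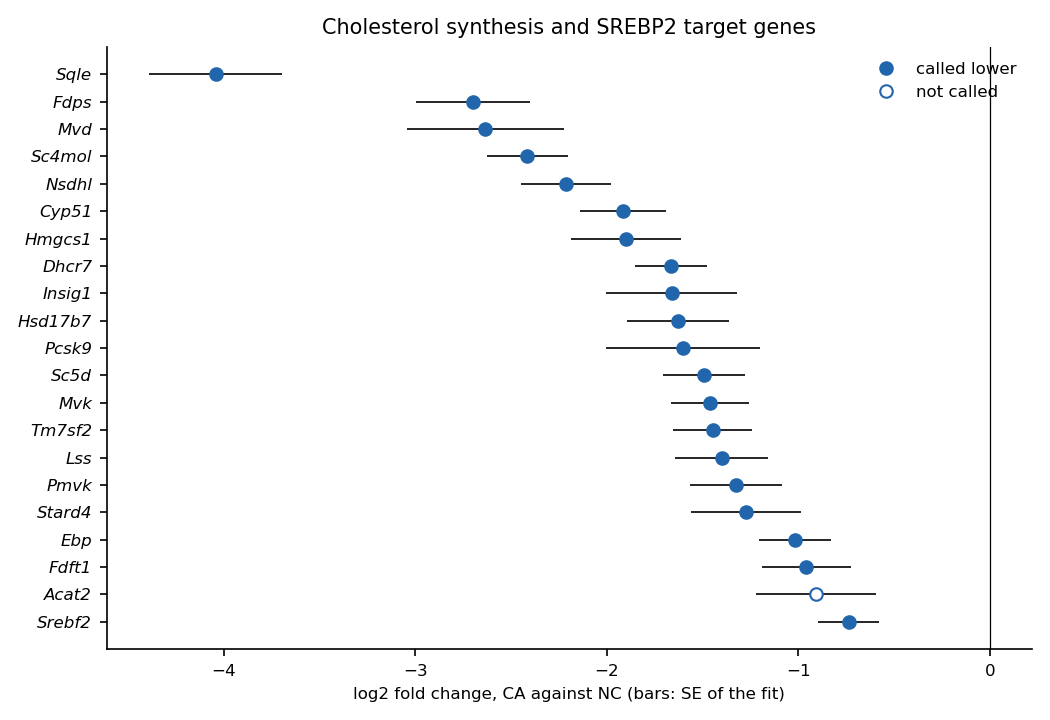
Log2 fold change of 21 of the 24 tested cholesterol synthesis genes, cholic acid against chow, as points with bars for the standard error of the fit, filled where the gene was called lower. All points lie below 0, Sqle lowest, and the open point (Acat2) did not pass.

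Some sterol efflux genes rose. Abcg5 and Abcg8, which pump sterol into bile, stood at 58.6 to 73.9 and 79.7 to 138 CPM in chow and at 188 to 228 and 240 to 302 CPM with cholic acid (1.61 ± 0.19 and 1.36 ± 0.19). The genes overlap on opposite strands, and the strand that was counted is not given, so their reads cannot be fully told apart. Abcg1, another LXR target, rose by 2.48 ± 0.34. Of 14 LXR targets 4 rose and 2 fell, Cyp7a1 and Pltp, with a median of −0.15. Pltp, phospholipid transfer protein, had 393 CPM in NC_3 and 88.0 to 107 CPM in the other chow libraries, against 16.7 to 51.5 CPM with cholic acid.

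Fatty acid synthesis was lower in part: 7 of 23 genes fell and none rose, with a median of −0.78. The falls numbered 4 without CA_2 or NC_0, and 11, with 1 rise, without NC_3 and CA_0. Pklr, liver pyruvate kinase, stood at 384 to 467 CPM in chow and 147 to 197 CPM with cholic acid (−1.27 ± 0.23), and Acss2, which activates acetate, at 250 to 529 and 85.6 to 128 CPM (−1.62 ± 0.23). Fasn, fatty acid synthase, had groups that did not overlap but missed the threshold (−1.39 ± 0.44, adjusted p = 0.05146). It passed in 7 alternatives, among them the fit without CA_0 (adjusted p 0.007628 to 0.04864 over those). Of 25 genes of triglyceride handling 4 rose and 5 fell (3 fell without NC_0, 8 without NC_3 and CA_0). Cd36, a fatty acid importer, rose by 1.95 ± 0.39, and Mogat1, which makes diglyceride, fell by 3.08 ± 0.63. Of 36 genes of fatty acid oxidation 4 rose and 4 fell. These counts did not hold: 0 rose and 1 fell without NC_0, 2 rose without CA_2 or NC_1, and no more than 2 fell without any 1 library other than CA_0. Lpl, lipoprotein lipase, also on the macrophage marker list, which the adult liver normally expresses little, stood at 25.8 to 41.8 CPM in chow and 95.6 to 171 CPM with cholic acid (1.89 ± 0.23).

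Sex-biased genes changed strongly, and CA_0 stood apart in them. Male and female mouse livers differ in many genes because growth hormone reaches them in different patterns, read through STAT5b and BCL6. All 8 libraries carried reads of Y-linked genes (Eif2s3y 396 to 552, Ddx3y 363 to 854, Kdm5d 127 to 229 and Uty 100 to 173 reads) and 0 to 3 reads of Xist, in both groups alike. Of 36 tested genes that male livers express more, 23 fell and none rose, with a median of −2.31. Relative to the chow mean the list median was −0.93 in CA_0, −2.48 in CA_1, −2.96 in CA_2 and −3.55 in CA_3. Without CA_0 29 of 36 fell with a median of −3.40, and without both CA_0 and NC_3 30 fell.

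Some of these genes were almost absent with cholic acid. Susd4, a complement regulator, stood at 62.9, 45.3, 36.3 and 23.0 CPM in chow and 0.24, 0.23, 0.59 and 0.21 CPM with cholic acid (−6.93 ± 0.55, adjusted p = 2.641e-07). Serpina1e, an α1-antitrypsin paralog, stood at 7361, 4889, 5103 and 4829 CPM in chow and 307, 50.5, 105 and 11.9 CPM with cholic acid. Mup11, a major urinary protein gene, stood at 487, 260, 240 and 270 CPM in chow and 4.68, 0.94, 1.28 and 1.28 CPM with cholic acid (−7.28 ± 0.91). CA_0 was the highest cholic acid library for Serpina1e and Mup11. Of 18 tested Mup genes 15 fell, with a median of −5.13. Mup20, which encodes the pheromone darcin, did not pass: chow libraries were at 450 to 709 CPM and the cholic acid libraries at 2110, 452, 225 and 81.3 CPM. Hsd3b5, a steroid reductase, stood at 174 to 212 CPM in chow and 16.3, 0.70, 5.71 and 0.43 CPM with cholic acid (−5.07 ± 0.67).

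Of 25 tested female-biased genes 14 rose and 2 fell, with a median of 1.65 (0.34 in CA_0, 1.71 in CA_1, 2.22 in CA_2 and 2.01 in CA_3). Cyp2a4, a testosterone hydroxylase, stood at 0.42, 0, 0.13 and 0.44 CPM in chow and 31.6, 99.8, 159 and 387 CPM with cholic acid (9.36 ± 0.83, adjusted p = 5.685e-07). Cux2, a transcription factor of female liver, was at 0.41 to 1.02 CPM in chow and at 0.48, 8.78, 43.6 and 22.4 CPM with cholic acid, so that CA_0 lay within the chow range and the other 3 far above it. Cyp17a1 (−1.80 ± 0.36) and Cyp2c69 (−3.49 ± 0.71), both of the same list, fell, so the list did not move as 1 group. The count that rose dropped to 7 of 20 without CA_2, 8 of 20 without CA_3 and 9 of 20 without CA_1, and was 8 of 19 in a fit of these 2 diets alone; fewer members passed the low-count filter in those fits. Members that pass through the cholic acid group alone had to differ, so these counts describe the tested members and not the whole list of 33. Of the 14 that rose, Cyp2b9, Cyp2b13 and Cyp3a44 also belong to the CAR and PXR list.

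**Figure D4:**
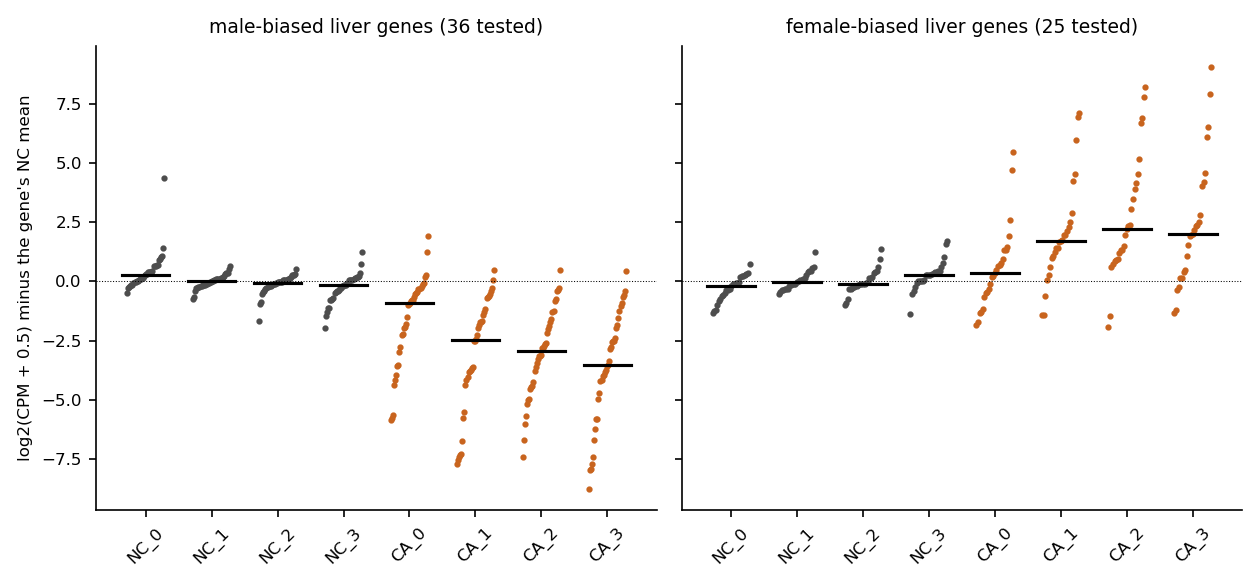
Difference from the chow mean on the log2 scale for each tested male-biased and female-biased gene in each library, with the list median marked. The male-biased median is −0.93 in CA_0 and −2.48 to −3.55 in the other cholic acid libraries, and the female-biased median is 0.34 in CA_0 and 1.71 to 2.22 in the other cholic acid libraries.

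Of 19 tested genes of growth hormone signalling itself, 2 rose and 4 fell, with a median of −0.19. The rises numbered 0 without CA_2 or CA_3 and 1 without CA_1 or any 1 chow library. Igf1, the circulating growth factor, stood at 659 to 836 CPM in chow and 387 to 495 CPM with cholic acid (−0.81 ± 0.13, adjusted p = 0.0003283). Stat5b (0.26 ± 0.19, adjusted p = 0.4963), Socs2 (0.67 ± 0.58, adjusted p = 0.5709) and Bcl6 (−1.20 ± 0.69, adjusted p = 0.3361) did not pass. Egfr, which male livers express more, was called lower (−2.27 ± 0.58, adjusted p = 0.01429), but NC_3, at 261 CPM, lay beside CA_0, at 262 CPM, and the call was lost without CA_3 (adjusted p = 0.0562).

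Hepatocytes around the central vein, next to Wnt-producing endothelium, express a set of genes that fell in the main. Of 28 pericentral genes 15 fell and 3 rose, with a median of −0.82. Glul, glutamine synthetase, stood at 1023, 1102, 896 and 1117 CPM in chow and 380, 268, 200 and 259 CPM with cholic acid (−1.90 ± 0.16, adjusted p = 4.391e-07). Cyp2e1, which oxidises ethanol, stood at 8178 to 8216 CPM in chow and 3160 to 4511 CPM with cholic acid (−1.22 ± 0.15). Lgr5, a Wnt target, fell by 2.20 ± 0.29, and Slc1a2, a glutamate importer, by 2.30 ± 0.20. Axin2, another Wnt target, did not pass (−0.59 ± 0.27, adjusted p = 0.2139; it passed without NC_3, adjusted p = 0.04189). Cyp1a2 was at 758 to 969 CPM in chow and 495 to 1337 CPM with cholic acid (−0.08 ± 0.31, adjusted p = 0.9292). The 3 that rose, Gstm3, Cyp2c29 and Cyp2a5, are drug metabolism genes. Of 29 periportal genes 5 fell and 4 rose, with a median of −0.26. The falls numbered 2 without CA_3 or NC_0, 3 without CA_2 or NC_2 and 8 without NC_3 and CA_0. Hsd17b6, a steroid dehydrogenase, stood at 99.1 to 224 CPM in chow and 987 to 1540 CPM with cholic acid (3.09 ± 0.28), and Tat, a tyrosine transaminase, fell by 1.501 ± 0.28. The 2 lists were not tested against each other.

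Glucose and amino acid genes fell in part. Of 30 genes of glycolysis, fructose use and gluconeogenesis 10 fell and 2 rose, and the rises numbered 0 without any 1 of CA_0, CA_1, CA_3, NC_0, NC_1 or NC_2 and 1 without NC_3. G6pc, glucose-6-phosphatase, was at 467 to 1083 CPM in chow and 183 to 334 CPM with cholic acid; its fall (−1.85 ± 0.51, adjusted p = 0.02524) lost its call in 9 alternatives, among them the fits without CA_0, CA_2, CA_3, NC_0, NC_1 or NC_2 (adjusted p 0.05308 to 0.1093). Fbp1, which precedes it in glucose production, fell by 0.74 ± 0.14, and Ppp1r3g, a glycogen-targeting subunit, from 13.3 to 29.4 CPM in chow to 1.08 to 3.63 CPM (−3.23 ± 0.39). Of 24 methionine and one-carbon genes 6 fell and 1 rose, with 9 and 3 without NC_3 and CA_0. Bhmt, the betaine methyltransferase, was among those that fell (−1.57 ± 0.30). Car3, a carbonic anhydrase of hepatocytes and fat, stood at 3470 to 6189 CPM in chow and 323 to 777 CPM with cholic acid (−3.06 ± 0.38). Dio1, which activates thyroid hormone, stood at 107 to 171 CPM in chow and 49.8, 4.8, 4.14 and 4.27 CPM with cholic acid, CA_0 again nearest to chow. Of 26 hepatocyte transcription factors 5 fell and 1 rose, and the counts were 8 and 1 without NC_3 and 13 and 3 without NC_3 and CA_0. Cebpa, a factor of hepatocyte identity, stood at 305 to 376 CPM in chow and 143 to 194 CPM with cholic acid (−1.06 ± 0.11, adjusted p = 6.022e-06). None of 31 respiratory chain subunits passed by edgeR or by DESeq2, and 1 had an unadjusted p under 0.05. Their median was −0.07, and 0.06 without NC_3. Without NC_3 and CA_0 2 were higher and 1 lower.

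Kupffer cell markers, the genes of the resident macrophages of the liver, were higher in every cholic acid library. Of 14 tested 12 rose and none fell, with a median of 1.93, and 11 to 14 rose over all alternatives. Clec4f, found in mouse only on Kupffer cells, stood at 20.6, 25.6, 24.4 and 39.8 CPM in chow and 139, 78.6, 45.3 and 85.1 CPM with cholic acid (1.66 ± 0.33, adjusted p = 0.002924). Timd4, a marker of the long-lived resident cells, stood at 2.12 to 3.16 CPM in chow and 5.32 to 16.3 CPM with cholic acid (2.18 ± 0.43). Marco, a scavenger receptor, stood at 0.82 to 3.50 CPM in chow and 70.2, 21.1, 6.80 and 10.7 CPM with cholic acid (3.70 ± 0.83). The groups did not overlap in these 3 picked genes (13.75% of all genes tested did not), and CA_0 was highest and CA_2 lowest each time. The summed level of the 14 markers was 192.5 to 276.3 CPM in chow and 607.1 to 1084 CPM with cholic acid. Slc40a1, whose levels are given further below, made up a large part of the sum in CA_2. Unlike the picked genes, it was lowest in CA_0 and highest in CA_2 among the cholic acid libraries. Of 6 leukocyte genes picked after their values were seen, Cybb, of the phagocyte oxidase (2.15 ± 0.42), Itgb2, an integrin (2.20 ± 0.51), Ptprc, CD45 (1.73 ± 0.38), Laptm5, a lysosomal membrane protein (1.78 ± 0.41), and Lyz2, lysozyme (2.13 ± 0.53), were higher. Lyz2 lost its call without NC_0 (adjusted p = 0.05061). The other one, Tyrobp, an adaptor of myeloid receptors, was called (1.73 ± 0.54, adjusted p = 0.04869) but lost the call in 10 alternatives, among them the fits without CA_0, CA_1, CA_3, NC_0, NC_1 or NC_2 (adjusted p 0.05004 to 0.1819).

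Of 16 markers of recruited and lipid-laden macrophages, 4 rose and 1, Fabp5, fell (−2.84 ± 0.53). Trem2 (2.24 ± 0.86, adjusted p = 0.1182) and Gpnmb (2.50 ± 0.83, adjusted p = 0.06576), which mark lipid-laden cells, were at most at 1.20 and 2.07 CPM in any cholic acid library. Neither passed in the main fit. Gpnmb passed in 4 alternatives, among them DESeq2 and the fit without NC_3 (adjusted p 0.01141 to 0.04189). Trem2 passed without NC_3 and CA_0 (adjusted p = 0.02894), where 8 of 15 markers of this list rose. In the fit of the 2 diets alone 4 of 9 rose. No marker of neutrophils (4 tested) or B and plasma cells (6) passed by edgeR, with 2 and 1 at an unadjusted p under 0.05 and 1 and 0 called by DESeq2. Of 11 T and NK cell markers 1 rose. Which members of these lists pass the low-count filter depends on the libraries in the fit, those of other diets included, so no median is given. In the fit of the 2 diets alone 1 neutrophil, 3 B and plasma cell and 2 T and NK cell markers were tested. Their summed levels were highest in CA_0 among the cholic acid libraries, and NC_3 was the highest chow library for each. Of 33 interferon-stimulated genes 9 rose, with a median of 0.90. The count was 4 without CA_0 or NC_0, 5 without CA_1 or NC_1, 6 without CA_3 or NC_2, 13 without CA_2, 7 without NC_3 and CA_0, and 16 with a term for the length trend. Zbp1, a sensor of nucleic acid in this list, was at 3.67 to 5.91 CPM in chow and 48.5, 26.6, 7.78 and 15.8 CPM with cholic acid, and lost its call without CA_0 or NC_0 (adjusted p 0.05128 to 0.0543 over the alternatives that lost it). Of 30 chemokine and adhesion genes 6 rose and 1 fell. The rises numbered 4 without CA_0 or NC_1, 3 without NC_0, 9 without CA_2, 10 of 28 without NC_3 and CA_0, and 14 of 30 with a term for the length trend. In the fit of the 2 diets alone only 18 of these genes were tested, and 7 rose. Of 17 MHC class II genes 3 rose, against 2 without CA_0, CA_1, NC_0 or NC_2, 10 of 15 without NC_3 and CA_0, and 11 of 17 with the length term. The fit of the 2 diets alone tested 11 MHC class II genes, and 6 rose. The part of the marker levels in these results was not tested.

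**Figure D5:**
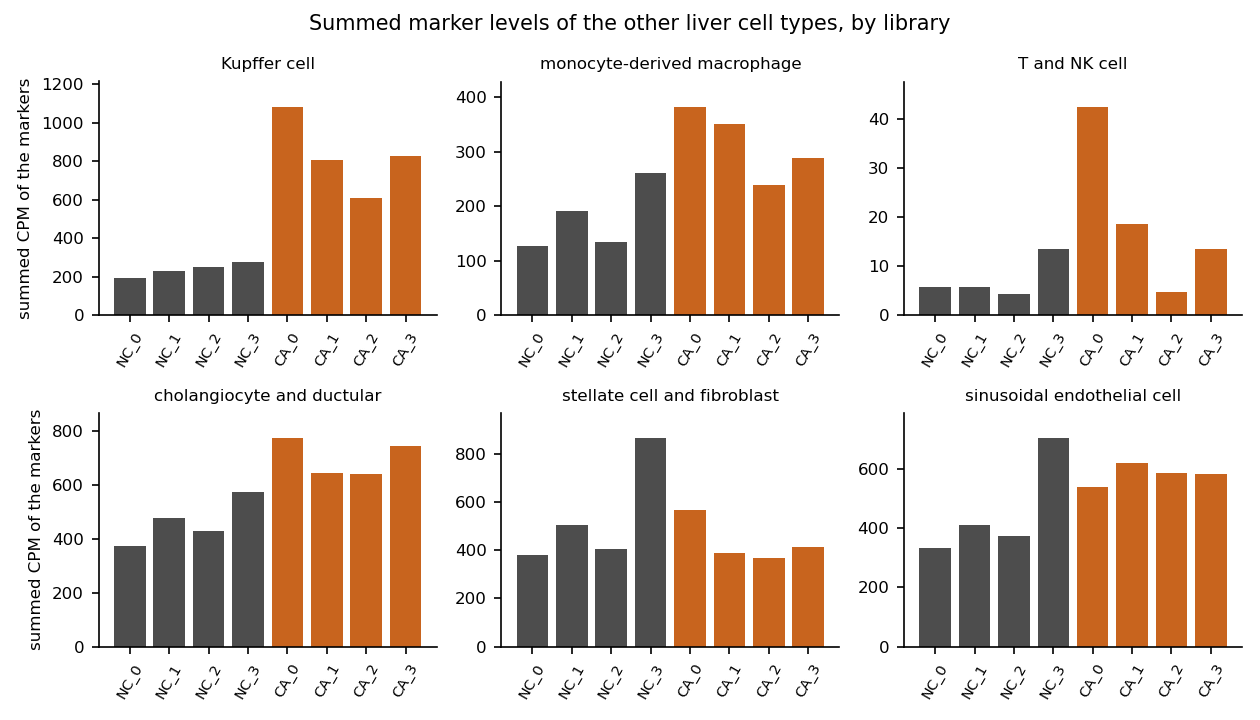
Summed CPM of the marker lists of 6 liver cell types in each library, as bars from 0 with a scale of its own for each list. The Kupffer cell sum is above every chow library in all 4 cholic acid libraries (607.1 to 1084 against 192.5 to 276.3 CPM), while the T and NK cell sums overlap.

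Other cell types of the liver showed few calls. Of 18 cholangiocyte and ductular markers 3 rose. Krt23 stood at 0.85 to 2.20 CPM in chow and 11.9 to 28.9 CPM with cholic acid (3.46 ± 0.45), and Prom1, also on the female-biased list, at 0.71 to 4.60 and 11.6 to 46.9 CPM (4.27 ± 0.52). The defining duct markers Krt19 (−0.96 ± 0.55, adjusted p = 0.3369), Krt7 (−0.40 ± 0.53, adjusted p = 0.7391) and Epcam (0.20 ± 0.38, adjusted p = 0.8278) did not pass. The summed level of the list was 371.5 to 572.5 CPM in chow and 638.6 to 773.5 CPM with cholic acid. Of 18 stellate cell and fibroblast markers none rose and Lrat, which stores retinol as esters, fell (−1.09 ± 0.26). Of 39 matrix and fibrosis genes Mmp12, a macrophage elastase, rose and none fell. In the fit of the 2 diets alone 35 of them were tested and 0 rose or fell. Without NC_3 and CA_0 2 of 38 rose and 4 fell. Of 18 sinusoidal endothelial markers Cdh5, an endothelial cadherin, rose (0.97 ± 0.24, adjusted p = 0.01313, with the call lost without NC_0 or NC_2); their sum was 705.5 CPM in NC_3, 334.6 to 412.8 CPM in the other chow libraries and 540.9 to 619.9 CPM with cholic acid, and without NC_3 and CA_0 13 of 18 rose. Of 35 cell cycle genes 3 rose: Ccnd1, cyclin D1, stood at 30.4 to 58.8 CPM in chow and 95.4 to 193 CPM with cholic acid (1.76 ± 0.31), while the proliferation marker Mki67 did not pass (0.81 ± 0.55, adjusted p = 0.4468). NC_0 had 11.6 CPM of Mki67 against 1.65 to 2.17 CPM in the other chow libraries, and without NC_0 Mki67 passed (adjusted p = 0.02698). Of the markers of pancreas, adipose tissue, and gallbladder and gut, 1, 2 and 2 were abundant enough to test. None passed by edgeR, 1 of each list had an unadjusted p under 0.05, and DESeq2 called 1 pancreas and 1 adipose marker lower. No muscle marker was abundant enough to test. Of 5 erythroid markers 1 fell.

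Which cholic acid library lay nearest to chow varied with the genes. Among the 677 genes called higher, the cholic acid library nearest to chow was CA_0 for 269 (39.7%) and CA_2 for 263 (38.9%), against 98 for CA_1 and 47 for CA_3. Among the 561 called lower, CA_0 was nearest for 285 (50.8%). In the chow group NC_3 was nearest to cholic acid for 313 (46.2%) of the higher and 203 (36.2%) of the lower genes. By list medians, CAR and PXR targets and sex-biased genes were nearest to chow in CA_0, whereas Kupffer cell markers and interferon-stimulated genes were nearest to chow in CA_2. On the second principal component of the 8 libraries (14.2% of the variance) CA_0 lay at −0.748 and CA_2 at 0.454. CA_0 and NC_3 share a negative length trend, and its part in these differences was not tested.

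Adding 2% cholesterol to cholic acid (Chol_CA against CA) changed 2662 genes (21.2%), 1597 higher and 1065 lower. Because CA enters this contrast and the one with chow, the values are given side by side. CAR and PXR targets, 22 of 30 higher in CA than in chow, were lower in Chol_CA than in CA for 24 and higher for none (median −2.11). Cyp2b10 had a mean of 2.48 CPM in chow, 160 CPM in CA and 0.08 CPM in Chol_CA. Male-biased genes were higher in Chol_CA than in CA for 22 and lower for 1 (median 1.92), and female-biased genes lower for 20 and higher for 1 (median −3.38). Serpina12, a male-biased serpin, had means of 76.7 CPM in chow, 5.98 CPM in CA and 123.1 CPM in Chol_CA. Glul had a mean of 277 CPM in CA and 711 CPM in Chol_CA. Cholesterol synthesis genes were lower still in Chol_CA for 13 of 24 and higher for none. Kupffer cell markers were higher in Chol_CA for 7 of 14, matrix and fibrosis genes for 31 of 39, and Gpnmb had a mean of 1.22 CPM in CA and 127 CPM in Chol_CA.

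Measured against high sucrose in place of chow, cholic acid changed 1677 genes (13.3%), 860 higher and 817 lower. Both contrasts share the CA libraries. The diet label of 1 sample titled HS reads normal chow, and the count column it belongs to is not known. CAR and PXR targets were higher in CA than in HS for 24 of 30 (median 3.09). Cyp2c29 had means of 1989 CPM in chow, 711 CPM in HS and 5972 CPM in CA. Cholesterol synthesis genes were lower for 18 of 24 and male-biased genes for 27 of 36, and 9 of 14 Kupffer cell markers were higher. Cyp8b1 and Cyp7a1, near 0 in CA, had log2 fold changes against HS of −8.08 and −5.12. Several genes named above overlap a gene on the other strand (Ostb, Abcb1a, Abcb11, Akr1b7, Cyp2a4, Prom1, Glul, Hmgcs1, Csad, Ccnd1 and Pltp among them). Of the 1238 called genes 337 do so or match no annotated gene, against 4133 of all 12578 genes tested. Reads of such pairs cannot be told apart where the counted strand is not given.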

How the data were processed

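Liver RNA of mice on different diets was sequenced. The deposited values are read counts per gene symbol, made with STAR 2.6.1c on mm10 per the submitters' processing notes; the authors' setting for strand is not given in the sources used here. Columns number from 0 and labels from 1, so a column was tied to a diet and not to 1 labelled sample, and 3 value columns that match no label were not used. 25 rows with a date in place of a symbol were left out. Symbols were matched to GENCODE M21 (29014 by name, 1876 by older name, 3546 unmatched with 0.4498% of reads). Promoter windows come from RefSeq on GRCm38.p6. edgeR 4.0.16 (R 4.3.3) fitted 20 libraries with 1 mean per diet after filterByExpr, with TMM scaling and robust quasi-likelihood dispersion, and p-values were Benjamini-Hochberg adjusted over 12578 genes. Alternatives used DESeq2 1.42.0, other scaling, filters and left-out libraries. The fit was also run on counts simulated from its own means and dispersions, without a length trend. That run says nothing of how the calls above hold. Intervals on read ratios cover counting error only.

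The members, gene lists and alternatives were chosen with earlier results of these data known. Genes named in the text are the 10 largest rises and 10 largest falls among genes with a mean of at least 5 CPM and groups that do not overlap, the 4 smallest adjusted p of each pathway list, and a fixed list. Others were chosen after their values were seen, for example Csad, Fabp5, Marco, Por, Fasn, Egfr, G6pc, Alb, Mup20, Trem2, Zbp1 and Cyp3a44. A few genes the rule names are not reported here.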

Additional observations from a re-analysis of the deposited data

Results flagged for a closer look

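In 33 of 416 sets of 4 libraries (each named gene, chow and cholic acid apart), 1 library lay so far from the other 3 on the log2(CPM + 0.5) scale that the ratio of its gap to the range passed Dixon's critical value. Chance gives about 1 in 20 such sets. Values below are CPM.

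CA_0 stood apart in 7 genes. Its level was low for Akr1b7 (6.601, others 34.7 to 46.6), Abcb1a (24.1, others 99.3 to 130.1) and Prom1 (11.6, others 45.4 to 46.9), all nearer to chow than the other cholic acid libraries. Its level was high, and again nearer to chow, for Mup11 (4.68, others 0.94 to 1.28), Cyp4a12a (279.6, others 55.2 to 72.5), Dio1 (49.8, others 4.14 to 4.8) and Lrat (14.3, others 7.57 to 8.195). CA_2 stood apart in 6: it was high for Susd4 (0.59, others 0.21 to 0.24), Cyp7a1 (1.38, others 0.12 to 0.23), Mogat1 (0.20, others 0.11 to 0.12) and Cyp2e1 (4511, others 3160 to 3262), and low for Pfkfb1 (9.56, others 13.8 to 14.9) and Rdh11 (29.7, others 41.8 to 44.4). The CA_2 values of Susd4 and Mogat1 are of a few reads.

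NC_3 stood apart in 12 genes. It was high for Cbr3 (0.87, others 0.13 to 0.14), Pltp (392.9, others 88.0 to 106.7), Acss2 (529.1, others 249.9 to 265.4), Col6a3 (13.1, others 10.15 to 10.3) and Sdhd (199.1, others 149.5 to 154.7). It was low for Lipg (6.55, others 26.0 to 33.8), Bhlhe40 (63.2, others 250.4 to 282.8), Slc27a5 (709.3, others 791.4 to 809.1), Axin2 (6.70, others 13.9 to 16.1) and Egfr (261.1, others 911 to 1031). For Cyp2b13 and Sult2a2 NC_3 had the single chow read (0.15 each), and NC_1 had that of Hao2 (0.14). NC_0 was high for Mup11 (487, others 240.2 to 270.3), Serpina1e (7361, others 4829 to 5103) and the proliferation marker Mki67 (11.6, others 1.65 to 2.17). NC_1 was low for Sqle (58.4, others 69.7 to 70.9) and Fasn (732.3, others 1150 to 1218), and NC_2 for Slc22a7 (14.9, others 27.8 to 28.3) and Lgr5 (7.53, others 12.6 to 13.6).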

How the results depend on the processing

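Against 677 genes higher and 561 lower with cholic acid, DESeq2 gave 778 and 737, size factors by relative log expression 638 and 591, a stricter filter 635 and 594, no filter 527 and 487, and a fit of chow and cholic acid alone 484 and 425. A minimum change of 1.5-fold gave 197 and 185. In the 12 libraries with a positive length slope, thus without NC_3 and CA_0, the counts were 1518 and 1445. They were 1107 and 893 when the sign of each library's length trend was a term of the fit. Leaving out 1 library gave 375 to 683 higher and 409 to 677 lower. For Chol_CA against CA (1597 and 1065) it gave 1075 to 2045 and 584 to 1144, and for CA against HS (860 and 817) 543 to 973 and 576 to 972. The lower count of the first was 584 without CA_2 and 655 without CA_3, and the higher count of the second was 543 without CA_3. These left-out fits were chosen after seeing the data. With the replicate number as a block, the fit of 2 diets gave 330 and 320, but the numbers do not pair the samples. Same-numbered libraries had correlations of −0.293, 0.237, 0.255 and −0.169. The largest correlation of any chow with any cholic acid library was 0.499, between NC_3 and CA_0, which share a negative length slope. No count and no named gene's call reversed. Medians of lists changed sign without NC_3 for matrix (−0.18 to 0.08), erythroid (−0.19 to 0.33), stellate cell (−0.26 to 0.01) and respiratory chain genes (−0.07 to 0.06). They also did in the 12 libraries for acute phase (0.28 to −0.04) and respiratory chain genes (0.06), and without CA_2 for sulfation genes (0.13 to −0.02). The T and NK cell median changed sign in the fits of 2 diets, but far fewer of its markers were tested there. Its medians thus cover different members and are not compared. Of 208 named genes 177 were called, and 71 of these lost the call in at least 1 alternative, 64 of them under the 1.5-fold minimum, 34 under the block and 25 without NC_0. Counts of 1 to 3 reads, as for Cyp2b13, Sult2a2 and Hao2 in chow, limit what depth can show.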

Other observations

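Gene groups outside the pathways above are given with their counts called. Over all genes tested 5.38% were higher and 4.46% lower, and some of the counts lie near those shares. Of 21 genes of iron, zinc and metallothionein handling 4 rose and none fell, but 1 rose without CA_3 or NC_0, 2 without CA_2, NC_1, NC_2 or NC_3, and 6 rose and 4 fell without NC_3 and CA_0. Slc40a1, the iron exporter ferroportin, also on the Kupffer cell list, stood at 67.7, 80.5, 120 and 60.4 CPM in chow and 144, 200, 309 and 266 CPM with cholic acid (1.48 ± 0.23), without overlap. Mt1, a metallothionein, stood at 7.83 to 8.17 CPM in chow and 12.96, 25.9, 111.8 and 54.6 CPM with cholic acid (2.69 ± 0.83, edgeR adjusted p = 0.04492), and lost the call in 9 alternatives, among them the fits without any 1 of CA_2, CA_3 and the 4 chow libraries (adjusted p 0.05037 to 0.1778). Of 26 acute phase genes 3 rose and 1 fell (2 to 4 rose without any 1 library, 4 rose and 3 fell without NC_3 and CA_0). Orm3, an orosomucoid, rose by 3.83 ± 0.73 and Lbp, the endotoxin-binding protein, by 1.01 ± 0.17. Of 40 complement and coagulation genes 4 rose and 7 fell, against 7 and 13 without NC_3 and CA_0. C6, of the membrane attack complex, stood at 212 to 391 CPM in chow and 157, 52.3, 27.1 and 20.8 CPM with cholic acid (−2.26 ± 0.45), CA_0 nearest to chow, and F11, coagulation factor XI, fell by 1.15 ± 0.18.

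Of 30 genes of ER stress and the integrated stress response 3 rose and 7 fell. The counts were 0 and 1 without CA_3, 0 and 3 without CA_2 or NC_0, 3 and 3 without CA_1, 1 and 4 without NC_1, 2 and 5 without NC_2, 0 and 8 without NC_3, 3 and 11 without CA_0, and 3 and 12 without both NC_3 and CA_0. Hyou1, an ER chaperone, fell by 1.09 ± 0.27 on the log2 scale, a call lost without CA_3 (adjusted p = 0.05006). Of 19 immediate early genes 2 rose and 5 fell (3 and 8 without NC_3 and CA_0), among them Dusp1 (−1.35 ± 0.28) and Jun (−1.08 ± 0.23). Of 21 circadian clock genes 1 rose and 3 fell, against 0 and 1 without any 1 of NC_0, NC_1 and NC_2 and 2 and 6 without NC_3 and CA_0. Their list median relative to the chow mean was −0.78 in NC_3 and −0.98 in CA_0. Of 18 retinoid genes 2 rose and 3 fell, of 23 genes of apolipoproteins and lipoprotein assembly 1 rose and 3 fell, and of 35 lysosomal genes 6 rose and none fell. Without NC_3 and CA_0 these 3 lists had 4 and 5, 3 and 7, and 10 and 2. The Gbp family, interferon-induced GTPases, had 6 of 11 higher. The glutathione transferase family had 8 of 19 higher, and ribosomal protein genes 1 of 73.

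Single genes outside the lists differed widely. Enho, which encodes adropin, stood at 15.7, 11.95, 11.6 and 13.3 CPM in chow and 1.08, 0.47, 0.59 and 0.64 CPM with cholic acid (−4.22 ± 0.50), and its mean in Chol_CA was 12.97 CPM. Aacs, which activates acetoacetate for lipid synthesis, fell by 2.41 ± 0.37. Cbr1, a carbonyl reductase, rose by 1.72 ± 0.33 and Cyp2a22, a cytochrome P450, by 4.51 ± 0.62. Hao2, a hydroxy acid oxidase, had 1 read in chow and 93 with cholic acid (ratio 74.3, 95% exact counting interval 13.01 to 2965).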
